A study of Mus musculus with 2 samples.

Results

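Lipoxygenases, cyclooxygenases and the enzymes that act beside them turn arachidonic acid into leukotrienes, prostaglandins, thromboxane and hydroxy acids. The 10 genes described here, Alox15, Alox5, Alox12, Alox5ap, Lta4h, Ltc4s, Ptgs1, Ptgs2, Ptges and Tbxas1, were taken by symbol from the 54532 genes of an expression table, and all 10 were found. The table holds FPKM, the fragments mapped to a gene relative to its length and to the size of the library, of RNA from mouse aortic macrophages. The sort used F4/80 and CD11b, proteins on the surface of macrophages and related myeloid cells, and each of the 2 libraries was made from the pooled cells of 5 mice. All mice were ApoE-/- on a C57BL/6J background, lack apolipoprotein E and are prone to atherosclerosis, and both groups are given as 6 weeks old, an age stated without the time point it refers to. The PDR mice (Phlegm-Dampness Retention) had 4 weeks of high-fat diet. The SKYD mice (Spleen and Kidney Yang Deficiency) were given propylthiouracil, an inhibitor of thyroid hormone synthesis, at a daily dose of 10 mg/kg for 4 weeks, followed by high-fat diet for 2 weeks. The treatment thus lasted 4 weeks in PDR and 6 weeks in SKYD. Syndrome, drug, time on the diet, length of treatment and age at sampling cannot be told apart in these libraries, and with 1 library a group no difference has a replicate check or a p-value.

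Phospholipases free arachidonic acid from membranes. Alox5, held at the nuclear envelope by its partner protein Alox5ap, makes leukotriene A4, which Lta4h hydrolyses to the neutrophil attractant leukotriene B4 and Ltc4s joins to glutathione to give the cysteinyl leukotrienes. Alox15 and Alox12 oxidise arachidonic acid at other carbons, Ptgs1 and Ptgs2 make prostaglandin H2, and Ptges and Tbxas1 turn that into prostaglandin E2 and thromboxane A2. In mice, Alox15 is known as a gene of resident peritoneal macrophages and eosinophils, and the enzyme takes part in the oxidation of lipoproteins in the artery wall.

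FPKM multiplied by gene length fell on whole multiples of 1 read for 100% of genes in both libraries, within a tolerance of 0.01 reads, so the reads behind each value could be recovered. They sum to 23086889 for PDR and 25427863 for SKYD. Each difference is that of log2(FPKM + 1), PDR minus SKYD, a scale that understates the folds of low genes, and a negative value is a higher level in SKYD. A gene is counted as more than 2-fold higher where this log2 difference is beyond 1 on either side, so that some low genes with a larger ratio of FPKM are not counted. A fold printed for a single gene is the plain ratio of its FPKM. The 95% intervals are exact (Clopper-Pearson) limits on the split of a gene's reads and reflect counting error alone, leaving out variation among mice.

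On the FPKM scale, most of the enzyme genes were higher in the SKYD library. Their summed level was 464 FPKM in PDR and 1039 FPKM in SKYD, and they took 0.112% and 0.242% of all reads on genes. Of the 10 genes, 8 reached the minimum that was set, an average of 1 FPKM over both libraries, and each of these 8 was higher in SKYD. Of these, 3 (Alox15, Ltc4s and Ptges) were more than 2-fold higher in SKYD and 0 were more than 2-fold higher in PDR. Of all 10399 genes of that level, 6.91% were more than 2-fold higher in SKYD and 7.38% were more than 2-fold higher in PDR. The median difference was -0.69 over the 8 enzyme genes and -0.0035 over all 10399. Ptges reached the minimum only through its SKYD level, so that it had to differ, while Alox12 and Ptgs2 stayed under it and were not lower in PDR. The direction depended on the reference that was used. Of 12 macrophage markers, 10 were also higher in SKYD, with a median of -0.77 over the list, while Csf1r (57.7 and 44.9 FPKM in PDR and SKYD) and Fcgr1 (51.9 and 35.3 FPKM) were higher in PDR and Adgre1 differed by only -0.10. With the differences centred on the median of these markers, the median of the 8 genes was 0.079 and none was more than 2-fold apart. The same centring moved the median of all 10399 genes to 0.77, with 283 genes more than 2-fold higher in SKYD and 3296 in PDR. The median of the 8 genes thus stayed below that of all genes. On that scale Alox5 (0.61), Alox5ap (0.20), Lta4h (0.27) and Tbxas1 (0.27) were higher in PDR. Alox15 (-0.76), Ptges (-0.52) and Ltc4s (-0.37) remained higher in SKYD, and Ptgs1 (-0.04) was nearly level. In bulk samples such as these, fewer cells of a type and less RNA per cell cannot be told apart.

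**Figure D1:**
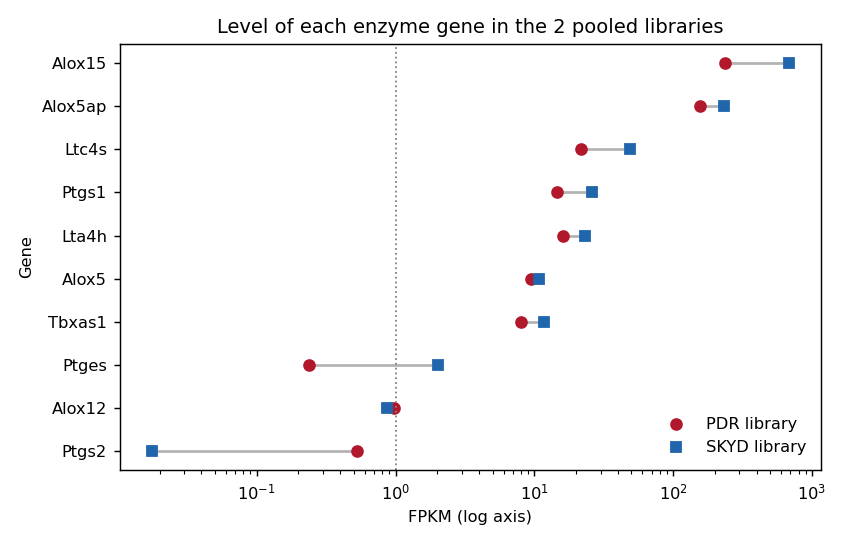
Level of the 10 enzyme genes in the PDR library (circles) and the SKYD library (squares), as FPKM on a log axis, with the dotted line at 1 FPKM. Alox15 and Alox5ap lie above all other genes in both libraries, and Ptges and Ptgs2 have the widest gaps, in opposite directions.

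**Figure D2:**
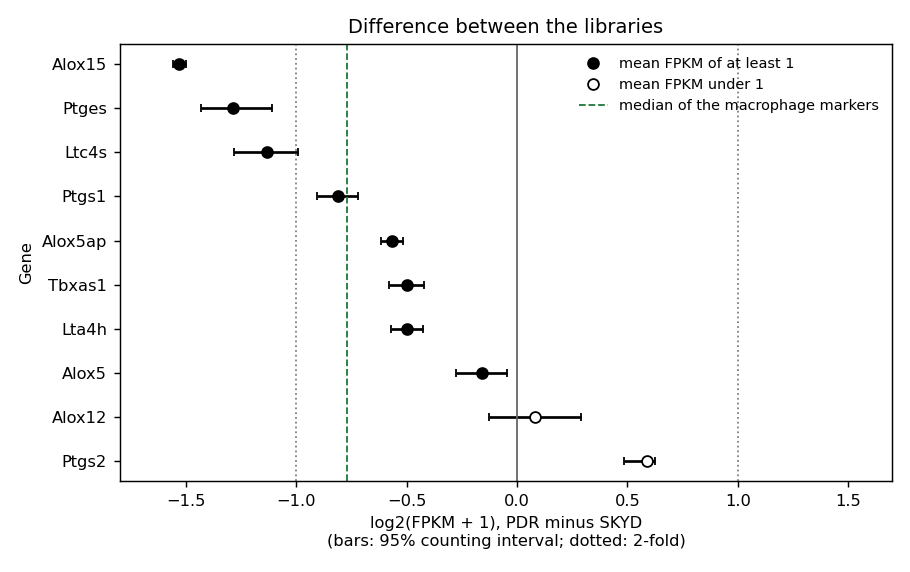
Difference of each enzyme gene, in log2(FPKM + 1), PDR minus SKYD, with bars for the 95% counting interval, dotted lines at a 2-fold difference and a dashed line at the median of the macrophage markers. Alox15, Ptges and Ltc4s lie beyond 2-fold on the SKYD side, and 4 of the filled points lie on the PDR side of the dashed line.

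Among the lipoxygenases, Alox15 (ENSMUSG00000018924, minus strand, chr11:70344152-70352031 of GRCm38) had the highest level of the 10 genes in both libraries. It stood at 236 FPKM in PDR and 683 FPKM in SKYD, from 13601 and 41879 reads. The level was 2.89-fold higher in SKYD (95% CI 2.84 to 2.95), a log2 difference of -1.53 (95% CI -1.56 to -1.50). Ordered by level, Alox15 was 342nd among the genes of PDR and 113th among those of SKYD. Among the 175 genes with at least its mean FPKM, 12 (6.86%), itself included, had a difference at or below that of Alox15. Alox15 was thus among the abundant transcripts of both libraries and higher in SKYD.

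Alox5 (ENSMUSG00000025701, chr6:116410077-116461178), which starts leukotriene synthesis, was much lower than Alox15. It had 9.51 FPKM in PDR and 10.7 FPKM in SKYD, from 917 and 1102 reads. The level was 1.13-fold higher in SKYD (95% CI 1.03 to 1.23), the smallest fold among the 8 genes that passed the minimum. Alox12 (ENSMUSG00000000320, chr11:70241457-70255353), the platelet-type lipoxygenase, had 93 reads in PDR and 88 in SKYD, or 0.969 and 0.862 FPKM. The interval of its log2 difference, 0.08 (95% CI -0.13 to 0.29), spans 0, so a difference was not detectable at this depth. The ratio of Alox15 to Alox5 in FPKM was 24.8 in PDR and 63.6 in SKYD. The lipoxygenases therefore did not differ alike, and Alox15 carried nearly all of their summed difference.

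Alox15 lies in a cluster of lipoxygenase genes on chromosome 11. Within 100 kb of it the table lists 9 other genes, among them Alox12 and Alox12e, and 4 of the 9 reached the minimum. Only Arrb2, which encodes a beta-arrestin and was named here after its values were seen, was also more than 2-fold higher in SKYD, with 8.43 FPKM in PDR and 18.8 FPKM in SKYD. Alox12e, an epidermal lipoxygenase, had 0 reads in PDR and 4 in SKYD. The high level of Alox15 was not shared by its neighbours, whose highest mean was the 76.2 FPKM of Med11, a subunit of the Mediator complex.

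Of the genes of leukotriene synthesis, Alox5ap (ENSMUSG00000060063, chr5:149264767-149288153) had the highest level. It had 157 FPKM in PDR and 233 FPKM in SKYD, from 5237 and 8280 reads, and was 1.49-fold higher in SKYD (95% CI 1.44 to 1.54). Its level was 16.5 times that of Alox5 in PDR and 21.7 times in SKYD. The partner protein's transcript was thus far more abundant than that of the enzyme in both libraries.

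Ltc4s (ENSMUSG00000020377), the leukotriene C4 synthase, had 21.6 FPKM in PDR and 48.6 FPKM in SKYD, from 514 and 1231 reads. The fold was 2.25 (95% CI 2.03 to 2.50), and the interval of its log2 difference, -1.13 (95% CI -1.28 to -0.99), reached to just inside 2-fold. Ltc4s thus stood near the 2-fold line, which its interval did not clear on the log scale. Lta4h (ENSMUSG00000015889, chr10:93453411-93484875), the leukotriene A4 hydrolase, had 16.0 FPKM in PDR and 23.0 FPKM in SKYD, from 2297 and 3512 reads, a fold of 1.44 (95% CI 1.36 to 1.52). Both enzymes draw on leukotriene A4, and the ratio of Ltc4s to Lta4h in FPKM was 1.35 in PDR and 2.11 in SKYD. The transcript of the cysteinyl leukotriene branch was the higher of the pair in both libraries, and by more in SKYD.

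Part of Ltc4s overlaps another gene. Of its exonic bases, 26.4% also lie in Gm26542, a gene on the opposite strand that had 18 reads in PDR and 40 in SKYD. For Alox5ap the share is 13.3% (Gm19719), for Ptgs1 3.81% (Gm43621) and for Tbxas1 1.58% (Gm42962), all on the opposite strand, and for the other 6 genes it is 0. Whether the counting used strand is not given in the sources used here, so reads from a gene and its antisense partner cannot be told apart over these stretches.

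Ptgs1 (ENSMUSG00000047250, chr2:36230426-36252272), the constitutive cyclooxygenase, had 14.5 FPKM in PDR and 26.2 FPKM in SKYD, from 1321 and 2542 reads. The fold was 1.81 (95% CI 1.69 to 1.93), with a log2 difference of -0.81. Ptgs2 (ENSMUSG00000032487), the inducible cyclooxygenase, had 57 reads in PDR and 2 in SKYD, or 0.530 and 0.0175 FPKM. It was low in both libraries and was the only one of the 10 genes with a clearly higher level in PDR. The PDR level was 30.3 times the SKYD level, and with so few reads the counting interval was wide (95% CI 8.02 to 256). With a pseudocount of 1 the log2 difference was 0.59, and with a pseudocount of 0.1 it was 2.42. Of the cyclooxygenase transcripts, then, nearly all came from Ptgs1 in both libraries.

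Other transcripts at the Ptgs2 locus were low too. Ptgs2os, an antisense gene whose span ends 68 bases from that of Ptgs2, had 9 reads in PDR and 3 in SKYD, and Ptgs2os2, a non-coding gene farther off, had 28 and 2. Both were picked out once their values had been seen, and none of the 5 other genes within 100 kb reached 1 FPKM on average. The other listed genes there had 0 reads in both libraries.

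Ptges (ENSMUSG00000050737), the inducible prostaglandin E synthase of membranes, had 0.238 FPKM in PDR and 2.03 FPKM in SKYD, from 22 and 199 reads. The fold of 8.50 (95% CI 5.46 to 13.9) was the largest of any of the 10 genes to the SKYD side. Its level was low in both libraries all the same, and with a pseudocount of 1 the log2 difference was -1.29, against -2.65 with a pseudocount of 0.1. Ptges3, a co-chaperone that also has prostaglandin E synthase activity in the cytosol, had 54.3 FPKM in PDR and 54.6 FPKM in SKYD. The ratio of Ptges3 to Ptges in FPKM was thus 228 in PDR and 27.0 in SKYD. Tbxas1 (ENSMUSG00000029925, chr6:38875404-39084585), the thromboxane A synthase, had 7.98 FPKM in PDR and 11.7 FPKM in SKYD, from 1705 and 2658 reads, a fold of 1.47 (95% CI 1.38 to 1.56). Ptges and Ptgs2, which are both known as inducible, differed in opposite directions.

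The promoters of Ptges, Ltc4s and Ptgs2 are shown because these had the largest folds among the genes with a promoter sequence, in opposite directions. RefSeq promoters matched 8 of the 10 genes, and those of Alox15 and Alox5ap were not matched. The sequences below are the 250 bases before the RefSeq start, 5′ to 3′ on the gene's strand in GRCm38.p6, and capitals mark the motifs found. Ptges is on the minus strand (chr2:30903298-30903547), as is Ltc4s (chr11:50238533-50238782), and Ptgs2 is on the plus strand (chr1:150099781-150100030). The RefSeq starts of Ptges and Ltc4s lie inside the longer spans that the table gives these genes.
Ptges: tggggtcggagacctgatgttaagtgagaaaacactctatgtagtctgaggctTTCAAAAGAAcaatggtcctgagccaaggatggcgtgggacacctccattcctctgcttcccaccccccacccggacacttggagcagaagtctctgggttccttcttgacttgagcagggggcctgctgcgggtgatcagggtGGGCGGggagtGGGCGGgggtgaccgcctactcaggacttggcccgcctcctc
Ltc4s: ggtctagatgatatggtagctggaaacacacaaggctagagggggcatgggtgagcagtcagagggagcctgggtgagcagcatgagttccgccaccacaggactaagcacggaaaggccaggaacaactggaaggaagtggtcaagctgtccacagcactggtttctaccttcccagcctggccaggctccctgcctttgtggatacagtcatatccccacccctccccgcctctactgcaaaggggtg
Ptgs2: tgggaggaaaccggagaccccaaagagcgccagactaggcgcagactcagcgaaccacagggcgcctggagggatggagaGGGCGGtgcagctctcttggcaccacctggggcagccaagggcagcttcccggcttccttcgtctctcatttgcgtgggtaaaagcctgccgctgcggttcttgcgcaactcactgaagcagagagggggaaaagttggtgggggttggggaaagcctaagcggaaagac

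These windows were searched on both strands for a TATA box (TATAAA), a GC box (GGGCGG), an E box (CACGTG), the core of a cyclic AMP response element (ACGTCA), and the spaced half-sites of STAT6 (TTC and GAA with 4 bases between them). Of 32851 promoters, 12.4%, 32.7%, 6.02%, 6.47% and 5.85% held these in turn. Ptges held GC boxes that begin 53 and 42 bases before the start and a STAT6 letter pattern that begins 197 bases before it. Ptgs2 held a GC box that begins 170 bases before the start, and Ltc4s held none of the motifs. Of the other matched genes, Alox12 and Alox5 held a GC box, and Tbxas1 held a TATA box and a STAT6 pattern. The window was afterwards widened to the 300 bases that end 50 bases after the start. There Ptgs2 also held the cyclic AMP core, which begins at base 13 of the transcript, and an E box that begins at base 17 and overlaps it. In that window 7.51% and 7.15% of all promoters held these. A match is a run of letters and does not show binding.

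The share of each gene in the summed FPKM of the 10 differed between the libraries. Alox15 made up 50.8% in PDR and 65.7% in SKYD, and Alox5ap 33.8% and 22.4%. Alox5, Alox5ap, Lta4h and Ltc4s together, the leukotriene branch, summed to 204 FPKM in PDR and 316 FPKM in SKYD. Ptgs1, Ptgs2, Ptges and Tbxas1, the prostanoid branch, summed to 23.2 and 39.9 FPKM. Before any centring, the sums of both branches were higher in SKYD. No sum was taken after centring on the macrophage markers, which turned Alox5, Alox5ap, Lta4h and Tbxas1 to the PDR side. The shares of both branches were smaller in SKYD, 44.0% against 30.4% and 5.0% against 3.84%, beside the larger share of Alox15. Without Alox15 the summed level of the other genes was 228 FPKM in PDR and 356 FPKM in SKYD.

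**Figure D3:**
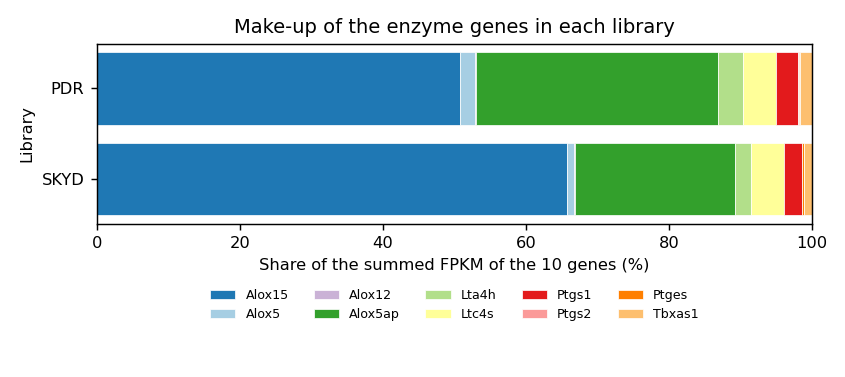
Share of each of the 10 enzyme genes in their summed FPKM, in percent, for the PDR and the SKYD library. The segment of Alox15 spans 50.8% in PDR and 65.7% in SKYD, and that of Alox5ap 33.8% and 22.4%.

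The genes upstream and downstream of these enzymes were mixed in direction. In a list of 64 such genes, 36 passed the minimum, 4 were more than 2-fold higher in SKYD and 2 were more than 2-fold higher in PDR. Of all 10399 genes of that level, 6.91% were more than 2-fold higher in SKYD and 7.38% in PDR. The median difference of the 36 genes was -0.36, with 20 lower and 16 higher in PDR, and 12 of the 64 genes were at 0 in both libraries. Their summed reads were 0.243% of those in PDR and 0.246% of those in SKYD. The list as a whole thus took a like share of both libraries.

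Of the 18 genes listed under arachidonate release, a class drawn broadly enough to hold Acsl4 and Mboat7, 9 passed the minimum. Of these, 1 was more than 2-fold higher in SKYD. The most abundant were Pla2g7, the phospholipase that cleaves platelet-activating factor and oxidised phospholipids, with 111 FPKM in PDR and 97.0 FPKM in SKYD, and Pla2g15, the lysosomal phospholipase, with 9.13 and 12.3 FPKM. Pla2g2d, a secreted phospholipase, had 5.35 FPKM in PDR and 14.8 FPKM in SKYD, a log2 difference of -1.32 (95% CI -1.49 to -1.15). Mgll, a monoglyceride lipase, was not counted but had a ratio of FPKM of 3.35 to the PDR side. It reached the minimum only through its PDR level, so that it had to differ. The genes of this class had no common direction, with a median of 0.12, which is the value of Acsl4. None of the 4 other lipoxygenases passed, and Alox12e and Alox8 had at most 4 reads.

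Of the 8 other prostanoid synthases, 7 passed and 0 were counted as more than 2-fold apart on the log2(FPKM + 1) scale. Hpgds, a prostaglandin D synthase, was not counted but had a ratio of FPKM of 2.74 to the SKYD side. It reached the minimum only through its SKYD level, so that it had to differ. Ptges3 and Akr1b3, an aldose reductase that can form prostaglandin F2alpha, were the most abundant, and Akr1b3 had 45.2 FPKM in PDR and 36.6 FPKM in SKYD. Of the 7 genes of prostaglandin breakdown and transport, 4 passed. Hpgd, which inactivates prostaglandins, had 22.2 FPKM in PDR and 52.4 FPKM in SKYD, a log2 difference of -1.20 (95% CI -1.31 to -1.09), and Ptgr1, which acts after it, had 17.0 and 23.7 FPKM. The genes of prostaglandin E2 had no common direction. Before any centring, Ptgs1, Ptges and Hpgd were higher in SKYD, Ptgs2 was higher in PDR, and the synthases Ptges3 and Ptges2 (6.56 and 5.86 FPKM in PDR and SKYD) were nearly level.

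Of the 10 genes of leukotriene and hydroxy acid metabolism, 7 passed, and 1 was counted as more than 2-fold higher in PDR on the log2(FPKM + 1) scale. Mgst2, a microsomal glutathione transferase, was not counted but had a ratio of FPKM of 2.14 to the SKYD side. Gpx4, which reduces lipid hydroperoxides such as those that lipoxygenases form, had 283 FPKM in PDR and 354 FPKM in SKYD. Cyp4f18, which inactivates leukotriene B4, had 137 and 94.7 FPKM. Ephx2, an epoxide hydrolase that is also abundant in liver, had 8.91 FPKM in PDR and 2.82 FPKM in SKYD, a log2 difference of 1.38 (95% CI 1.18 to 1.57). Dpep1, which turns leukotriene D4 into leukotriene E4 and was named after its values were seen, had 0 reads in PDR and 109 in SKYD. With the PDR library set to a floor of 3 reads, Dpep1 was at least 34.1-fold higher in SKYD. Ggt1, a glutamyltransferase that turns leukotriene C4 into leukotriene D4, was also under the minimum and ran the other way, with 86 reads in PDR and 13 in SKYD, a fold of 7.04 to the PDR side (95% CI 3.91 to 13.8).

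Of the 8 leukotriene and lipoxin receptors, 5 passed, and on the log2(FPKM + 1) scale 1 was counted as more than 2-fold higher in SKYD and 1 in PDR. Fpr2, a receptor for formyl peptides and lipoxin A4, had 98.9 FPKM in PDR and 40.2 FPKM in SKYD, a log2 difference of 1.28 (95% CI 1.19 to 1.37). Ltb4r1, the high-affinity receptor of leukotriene B4, had 32.6 and 49.7 FPKM. Cmklr1, a receptor for chemerin and resolvin E1, had 2.56 FPKM in PDR and 9.63 FPKM in SKYD, a log2 difference of -1.58 (95% CI -1.75 to -1.41). Gpr31b, a receptor for 12-hydroxyeicosatetraenoic acid, had 49 reads in PDR and 12 in SKYD. It only just passed the minimum, through its PDR level alone, so that it had to differ. Its ratio of FPKM was 4.35 to the PDR side (95% CI 2.28 to 8.98), while its log2 difference, 0.93, stayed within 1. The receptors of this class were therefore split in direction.

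Of the 9 prostanoid receptors, 4 passed. Tbxa2r, the receptor of the thromboxane that Tbxas1 makes, had 5.48 FPKM in PDR and 20.3 FPKM in SKYD, a log2 difference of -1.72 (95% CI -1.90 to -1.54). On the log2(FPKM + 1) scale this was the largest difference to the SKYD side among the genes of the list that passed, while by the plain ratio Cmklr1 (3.76) was above Tbxa2r (3.71). Ptgir, the prostacyclin receptor, had 2.83 and 2.78 FPKM. Before any centring, thromboxane synthase and thromboxane receptor were both higher in SKYD and the prostacyclin receptor was level, but Tbxas1 was on the PDR side (0.27) once differences were centred on the macrophage markers. With that centring, none of the listed genes was more than 2-fold higher in SKYD and 9 were more than 2-fold higher in PDR. Of all 10399 genes, 283 were then more than 2-fold higher in SKYD and 3296 in PDR, with a median of 0.77. The count of 9 therefore shows no lean of the listed genes to PDR beyond that of all genes.

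**Figure D4:**
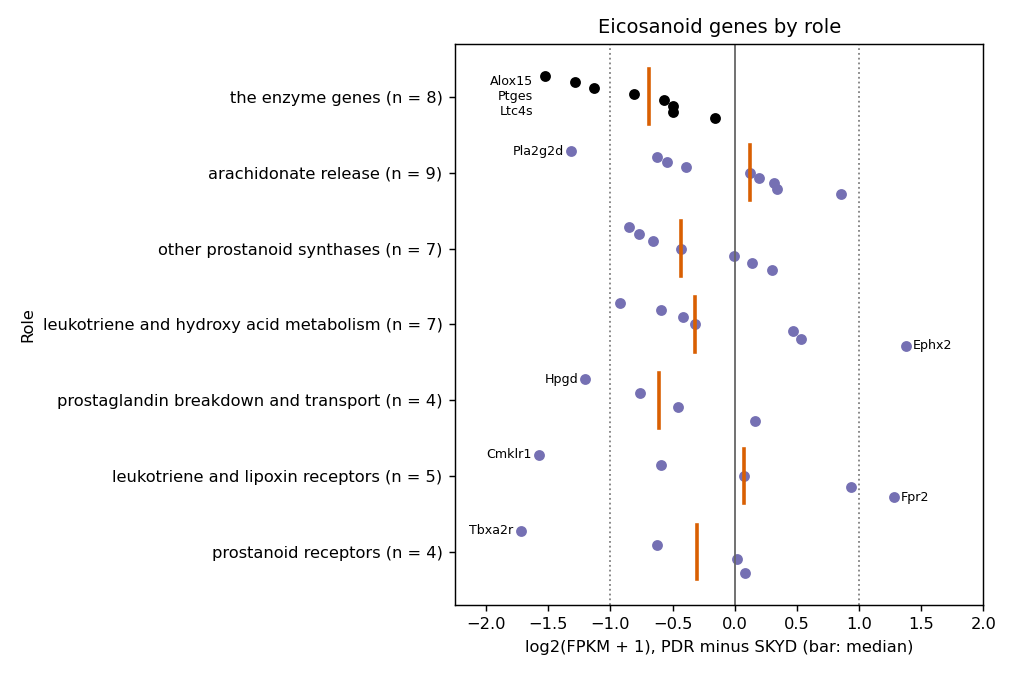
Difference in log2(FPKM + 1), PDR minus SKYD, of each eicosanoid gene with a mean FPKM of at least 1, grouped by role, with n for the genes plotted, a bar at each median and dotted lines at 2-fold. All 8 enzyme genes lie left of 0 on this scale, 4 of them not so once differences are centred on the macrophage markers, and each other class has genes on both sides.

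Alox15 is known to be induced by interleukins 4 and 13 in many myeloid cells. Of 12 genes of that response, 10 passed, 3 were more than 2-fold higher in SKYD and 0 in PDR, with a median of -0.03. Retnla, a secreted resistin-like protein, had 1939 FPKM in PDR and 9809 FPKM in SKYD, and the chemokine gene Ccl17 had 18.0 and 224 FPKM. Chil3, a chitinase-like protein, went the other way, with 2264 FPKM in PDR and 1245 FPKM in SKYD. Il4 itself had 1 read in PDR and 49 in SKYD, a ratio of 46.0 with a very wide counting interval (95% CI 7.89 to 1855), and Il13 had 0 reads in both. Il4 and Il13 were picked out once their values had been seen. The list did not move together, and Alox15 lay on the side of Retnla and Ccl17.

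Ptgs2 and Ptges are known to be induced with inflammatory genes. Of 10 such genes, 9 passed, 2 were more than 2-fold higher in SKYD and 2 in PDR, with a median of 0.33. Nfkbia, an inhibitor of NF-kappaB, had 230 FPKM in PDR and 485 FPKM in SKYD. The chemokine gene Ccl2 had 199 and 46.0 FPKM, and Il1b, which encodes interleukin-1 beta, had 89.8 and 71.1 FPKM. This list was split as well, with Ptgs2 on the side of Ccl2 and Ptges on that of Nfkbia.

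The markers of the cells in the sort differed between the libraries along with the enzyme genes. Of 12 macrophage markers, all passed, 5 were more than 2-fold higher in SKYD and 0 in PDR. Their summed level was 24923 FPKM in PDR and 48228 FPKM in SKYD, led by Lyz2, C1qb and C1qc, and without Lyz2 it was 2706 and 6892 FPKM. None of these markers was at 0, and the genes behind the sort were present, Adgre1 (F4/80) with 87.3 and 93.3 FPKM and Itgam (CD11b) with 8.84 and 14.4 FPKM. Of 13 markers of large peritoneal macrophages, a cell type known for Alox15, 12 passed and 6 were counted as more than 2-fold higher in SKYD, with a median of -1.04. F5 (1.74 and 3.51 FPKM in PDR and SKYD) and Ltbp1 (1.57 and 3.16 FPKM) were past 2-fold by the plain ratio only. Gata6, the transcription factor that defines these cells, had 1.07 FPKM in PDR and 1.60 FPKM in SKYD, and Timd4, a phosphatidylserine receptor, had 25.4 and 25.3 FPKM, so that these defining markers differed little. The summed level of the list was 285 FPKM in PDR and 897 FPKM in SKYD, led by Lrg1, Icam2 and Prg4, and without Lrg1 it was 223 and 516 FPKM. None was at 0. Their part in the result was not tested.

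Levels were also set against single macrophage markers, which were chosen after their values were seen and so support no direction. Per unit of Adgre1, Alox15 was at 2.70 in PDR and 7.32 in SKYD, and per unit of Itgam at 26.7 and 47.6. Per unit of C1qb it was at 0.173 and 0.211, a much smaller gap. The gap of Alox15 thus depended on the marker it was set against. For Alox5ap the direction did so too, with 1.80 in PDR and 2.50 in SKYD per unit of Adgre1, and 17.8 and 16.2 per unit of Itgam. Against peritoneal macrophage markers, the ratio of Alox15 to Timd4 was 9.31 in PDR and 27.0 in SKYD, to Icam2 1.60 and 2.40, to Prg4 10.1 and 7.22, and to Lrg1 3.82 and 1.79. Some of these markers differed by less than Alox15 and others by more.

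Cells that carry some of these enzymes were represented to differing degrees. Platelets are known for Alox12, Ptgs1 and Tbxas1. Of 10 platelet markers, 5 passed, 1 was counted as more than 2-fold higher in SKYD and 0 in PDR, with a median of 0.34, and Gp1bb was at 0. Gp5 and Treml1 were not counted but had ratios of FPKM of 3.19 and 3.39 to the PDR side. Both reached the minimum only through their PDR level, so that they had to differ. The summed level of the platelet list was 252 FPKM in PDR and 1471 FPKM in SKYD, led by Pf4, Ppbp and Gp9. Without Pf4, which macrophages can also express, it was 33.9 and 25.8 FPKM. Eosinophils and mast cells are known for Ltc4s and, in eosinophils, Alox15. Of 6 eosinophil markers, 2 passed and 0 were counted as more than 2-fold apart, the median was 0.11, and the summed level was 19.8 FPKM in PDR and 27.4 FPKM in SKYD, led by Prg2, Il5ra and Ear6, with Epx at 0. Prg2 was higher in SKYD (14.5 and 23.3 FPKM in PDR and SKYD), Il5ra was higher in PDR with a ratio of FPKM of 2.23, and Ear6, under the minimum, had 0 reads in PDR and 35 in SKYD. Of 8 mast cell and basophil markers, 5 passed, 1 was more than 2-fold higher in SKYD and 2 in PDR, the median was -0.09, and the summed level was 21.7 and 24.0 FPKM, led by Cpa3, Hdc and Mcpt8, with Mcpt4 and Tpsb2 at 0. Levels of different genes do not measure shares of cells, and the part of these cells in the result was not tested.

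Neutrophils are known for Alox5, Alox5ap and Lta4h. Of 11 neutrophil markers, all passed, 0 were counted as more than 2-fold higher in SKYD and 2 in PDR, with Ngp just short of it at 0.998 in log2, a median of 0.46 and none at 0. Their summed level was 4898 FPKM in PDR and 3776 FPKM in SKYD, led by S100a9, S100a8 and Ngp. Of the 11, 9 were higher in PDR, Lcn2 by only 0.04 on the log2 scale, while Mmp8 (-0.56) and Retnlg (-0.32), picked out once their values had been seen, were higher in SKYD. Their part in the result was not tested.

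Lymphocyte and liver transcripts differed as well. Of 7 B cell markers, 6 passed and all 6 were more than 2-fold higher in PDR (median 2.42), with 1712 FPKM in PDR and 389 FPKM in SKYD, led by Cd79b, Cd79a and Ms4a1. Of 8 T and NK cell markers, 6 were more than 2-fold higher in SKYD and 2 in PDR (median -2.30), with 293 and 764 FPKM, led by Cd3d, Cd3g and Lck. The 2 that were higher in PDR are the NK cell markers Nkg7 (143 and 50.6 FPKM in PDR and SKYD) and Ncr1 (11.2 and 2.49 FPKM), so that the T cell and NK cell markers of this list went opposite ways. All 8 hepatocyte markers were more than 2-fold higher in PDR (median 1.75), with 2186 and 741 FPKM, led by Apoa2, Fabp1 and Apoa1. Markers of several cell types thus differed between the libraries at once. Of 7 erythroid markers, 6 passed and 0 were more than 2-fold apart (median -0.29), with 20989 FPKM in PDR and 28335 FPKM in SKYD, led by Hba-a1, Hbb-bs and Hbb-bt. Markers of the artery wall were near 0. The 6 endothelial markers, led by Cdh5, Vwf and Tek, summed to 0.580 and 0.453 FPKM with none passing, and the 5 smooth muscle markers, of which Acta2 and Des passed (median 0.16), summed to 3.15 and 2.92 FPKM, with Myh11, Tagln and Cnn1 at 0. The part of these cells in the levels of the enzyme genes was not tested.

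**Figure D5:**
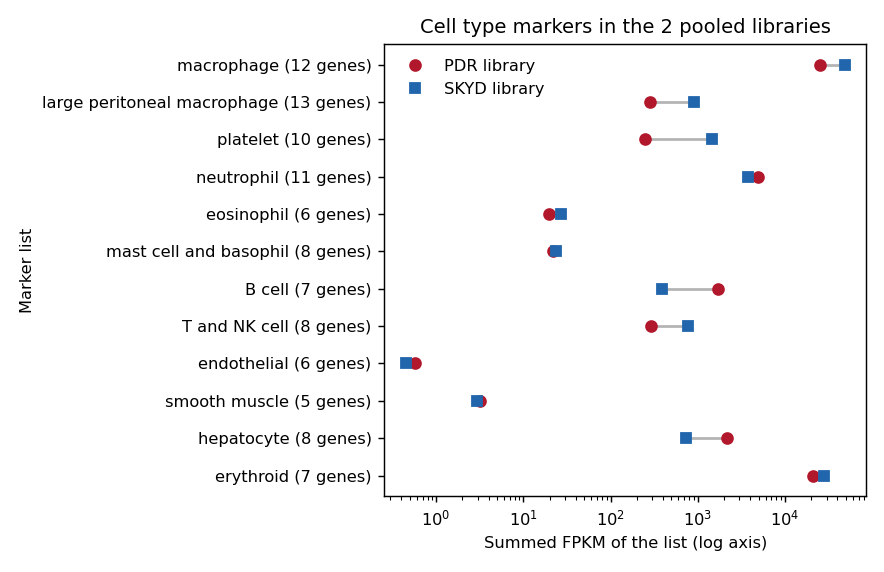
Summed FPKM of each list of cell type markers in the PDR library (circles) and the SKYD library (squares), on a log axis, with the number of genes in each list. Macrophage, peritoneal macrophage and T and NK cell sums are higher in SKYD, although the NK cell markers Nkg7 and Ncr1 are higher in PDR, the platelet sum is higher in SKYD only through Pf4, and B cell and hepatocyte sums are higher in PDR.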

How the data were processed

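RNA of sorted macrophages was sequenced by the authors in 1 pooled library of 5 mice for PDR and 1 for SKYD. Per the submitters' processing notes, reads were aligned with TopHat2 2.0.9 and Bowtie2 2.0.6 and counted per gene with HTSeq 0.6.1. The authors deposited FPKM for 54532 genes with gene length in bases (another unit), position and biotype. The notes name the build mm9, but the start and end of 98.3% of the 54495 genes shared with GENCODE M21 are those of GRCm38, and positions are given on that build. The library size behind FPKM was 1.02 times the summed reads in PDR and 0.983 times in SKYD. A count of 0 allows up to 3 reads, or 1.3e-05% of reads for PDR and 1.18e-05% for SKYD.

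From these values, reads were recovered as whole multiples of the lowest step in FPKM times gene length. Columns were assigned to groups by the labels. The comparison used log2(FPKM + 1), a threshold of 2-fold on that scale and a minimum of 1 for the FPKM averaged over both libraries. No test was made, since each group has 1 library. Exonic overlap was taken from GENCODE M21 and promoter sequences from RefSeq. The window widened beyond 250 bases was chosen after the first search was seen.

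Lists covered the pathway by role, the response to interleukins 4 and 13, inducible inflammatory genes, and markers of macrophages, large peritoneal macrophages, platelets, neutrophils, eosinophils, mast cells and basophils, B cells, T and NK cells, endothelium, smooth muscle, hepatocytes and erythroid cells. The enzyme genes and lists were chosen with earlier results of these data known. Named genes were all 10 enzyme genes, in each role class of the pathway the 2 with the highest mean FPKM, over the pathway the 3 with the largest difference each way, and in each other list the 3 with the highest mean FPKM. Others, such as Gata6 and Timd4, were named after their values were seen. A likeness of pattern across samples was not computed with 2 libraries.

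Alternatives were pseudocounts of 0.1 and 0.01, no minimum, a minimum of 5 FPKM, TPM, library size from reads outside immunoglobulin, T cell receptor and haemoglobin genes, centring on all genes or on macrophage markers, a 4-fold threshold, and protein-coding genes only. The steps were tested on simulated data. Tables were handled with pandas 2.3.3 and numpy 2.4.6, intervals computed with scipy 1.17.1 and plots drawn with matplotlib 3.10.9, under Python 3.11.15.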

Additional observations from a re-analysis of the deposited data

How the results depend on the processing

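Another pseudocount, minimum or choice of biotypes cannot turn the direction of a single gene. Of the alternatives that can, TPM, the other library size and centring on all genes turned none of the 10 enzyme genes, and centring on the macrophage markers turned Alox5 (0.61), Alox5ap (0.20), Lta4h (0.27) and Tbxas1 (0.27). That centring shifted the median of all genes to 0.77, with 283 genes more than 2-fold higher in SKYD and 3296 in PDR against 719 and 767 before, reversed the median of the enzyme genes to 0.079, left 0 of them more than 2-fold higher in SKYD, and gave 0 pathway genes higher in SKYD and 9 in PDR. The centring on a list that itself differs produces this shift by construction. The median of the enzyme genes was -0.53 with no minimum, -0.57 with a mean of at least 5 FPKM, -0.56 as TPM and -0.58 with library size outside immunoglobulin, T cell receptor and haemoglobin genes. At 4-fold on the log2(FPKM + 1) scale, 0 enzyme genes were higher in SKYD and 0 pathway genes in either library, though the plain ratios of FPKM of Ptges (8.50) and Gpr31b (4.35) are past it, against 216 genes higher in SKYD and 194 in PDR overall. With a mean of at least 5 FPKM, 373 and 464 of all genes were more than 2-fold higher in SKYD and PDR. Pathway genes higher in PDR numbered 4 with a pseudocount of 0.1, 4 with 0.01 and 5 as TPM, where all genes higher in PDR numbered 1057, 1096 and 1047. With no minimum and a pseudocount of 0.1, an alternative chosen after seeing the data, 1 enzyme gene (Ptgs2) was more than 2-fold higher in PDR, the median was -0.56, pathway genes numbered 7 in SKYD and 6 in PDR, and all genes 3572 and 2563. Other counts of enzyme and pathway genes stayed within 1.5 times. No paired analysis was possible because each group has 1 library, and depth limits the values of Ptgs2, Ptges and Alox12 most.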
